A study of Homo sapiens with 16 samples.

Results

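The genes described here are 46 genes of mitosis and of the G2 phase before it, measured in SH-SY5Y cells, an established human neuroblastoma line. They were taken by symbol from a table of normalised read counts of 19898 genes. It holds 45 of the 46, and SPC25 is not analysed here. All 45 were among the 16984 genes that passed the filter on low values and were tested. The lowest count of any of them in any library was 55 reads, for CDC25C.

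A cell that has copied its DNA builds up cyclins A and B, which bind the kinase CDK1, and CDC25 phosphatases then switch that kinase on. Polo-like and Aurora kinases, kinesin motors and kinetochore proteins build the spindle, and the spindle checkpoint holds back the anaphase-promoting complex until the chromosomes are attached. Most genes of this machinery are transcribed late in the cell cycle, driven by MYBL2 and FOXM1 on the MuvB core and held down by the DREAM complex in cells that have left the cycle, as neurons have.

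The study asked how the culture surroundings of these cells alter features of Parkinson disease. Cells were differentiated for 15 days, per the labels to dopamine-like neurons, and poly-A RNA was sequenced in 16 libraries, 4 in each of 4 groups. The untreated 2D group grew on flat dishes without toxin, and the untreated 3D group grew in a silk-collagen scaffold without toxin. The other two groups, MPP-treated 2D and MPP-treated 3D, grew in the same ways and received 1 mM 1-methyl-4-phenylpyridinium (MPP), an inhibitor of complex I of the respiratory chain that enters cells through monoamine transporters, on day 13 for 48 h. All groups are 1 cell line. Cells from dishes were detached with Accutase before freezing, whereas scaffolds were frozen whole, so culture and handling cannot be told apart. Whether the 4 libraries of a group are separate cultures is not given in the labels, and p-values therefore rest on library-to-library spread that may be technical.

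Libraries held 24589435 to 46359070 reads, and the counts limit the precision of the lowest members most. Values are normalised read counts, that is, reads divided by 1 size factor per library. Mitochondrially encoded mRNAs took 7.72 to 11.6% of the reads on the untreated dish, 3.30 to 6.84% in the untreated scaffold, 0.791 to 0.949% on the dish with MPP and 1.04 to 1.52% in the scaffold with MPP. This share moved with the groups, and with libraries scaled to nuclear reads all 45 members were still lower in untreated 3D and with MPP in 2D. Of 12 dopamine neuron markers 7 were tested: TH (319 to 6616 normalised reads over the 16 libraries), DDC (2166 to 14838) and SLC18A2 (862 to 7211) were present in every library, PITX3 reached 88.0, LMX1B 123, EN2 18.8 and NR4A2 11.2, and SLC6A3, LMX1A, FOXA2, EN1 and ALDH1A1 are not analysed here. Of the Schwann cell and glia markers, SOX10 was at 3.68 or less whereas ERBB3 was at 529 to 762. Of the mesenchymal markers, PRRX1 was at 0 in all libraries but MPP-treated 3D replicate 3 (11.1), whereas VIM (3442 to 6955), COL1A1 (1486 to 3834) and FN1 (1132 to 2505) were present in every library.

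MPP-treated 3D replicate 3 stood apart for the mitosis genes. It had the highest value of its group in 42 of 45 members, where 27.8% of all genes tested had their highest value there. Its ratio to the mean of the other 3 MPP-treated 3D libraries had a median of 1.53 over the members, from 0.990 for INCENP to 2.17 for CDC25C, against a median of 0.993 over all genes tested. It held 36554574 reads, against 37450021 to 38414859 in the rest of its group, and its mitochondrial share of 1.27% lies within theirs. Counts of members and of list genes called in comparisons with this group are also given without this library where they changed. Replicate 3 was set apart by these same member values, so leaving it out lowers the group mean of most members by construction. Member calls and adjusted p-values without replicate 3 are therefore a description. Other results with this group include it unless said otherwise.

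Many of the genes hold known promoter sequence features, which were not used to choose them. The elements searched are textbook binding sites in promoters of late cell cycle genes, so their presence here is no independent finding. RefSeq start windows (GRCh38.p14, 250 bases before to 50 after a start) were found for 39 of the 46, in 50 windows, and not for AURKA, BUB3, TTK, TPX2, UBE2C, BIRC5 and FOXM1. The cell cycle genes homology region (CHR), the element that the MuvB core contacts, was searched as TTTGAA or TTCGAA, the CCAAT box of NF-Y as CCAAT, and the E2F core as TTCCCGC or TTGGCGC, each on both strands. The following stretches just before the start are shown for 7 genes, with each match in capitals (on the opposite strand it reads as its reverse complement). CCNB2 and PLK1 show the common arrangement of CCAAT boxes ahead of a CHR, and CDK1 and MKI67 hold a pair of CHR matches each. NCAPG joins E2F matches to a CHR, and CDC25B has the rarer TTCGAA form. MYBL2, like CENPE, CKAP2 and KIF2C, has no match to the words searched. In MKI67 the second CHR match and the last CCAAT match overlap and form 1 run of capitals.
CCNB2, chr15:59105016-59105145, plus strand: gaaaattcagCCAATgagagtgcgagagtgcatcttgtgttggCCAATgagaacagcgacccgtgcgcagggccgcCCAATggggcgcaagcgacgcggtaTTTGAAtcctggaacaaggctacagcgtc
PLK1, chr16:23678789-23678888, plus strand: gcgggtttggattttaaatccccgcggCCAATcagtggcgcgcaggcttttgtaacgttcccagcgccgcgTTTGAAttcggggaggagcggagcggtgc
CDK1, chr10:60778378-60778477, plus strand: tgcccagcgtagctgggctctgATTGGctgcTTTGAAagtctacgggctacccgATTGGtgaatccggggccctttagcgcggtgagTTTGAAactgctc
MKI67, chr10:128126424-128126533, minus strand: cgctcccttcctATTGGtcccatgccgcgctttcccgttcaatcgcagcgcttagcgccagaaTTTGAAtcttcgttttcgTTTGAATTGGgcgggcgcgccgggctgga
NCAPG, chr4:17810869-17810978, plus strand: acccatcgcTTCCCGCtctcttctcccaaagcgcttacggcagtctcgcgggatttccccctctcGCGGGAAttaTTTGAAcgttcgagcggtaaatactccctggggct
CDC25B, chr20:3796130-3796309, plus strand: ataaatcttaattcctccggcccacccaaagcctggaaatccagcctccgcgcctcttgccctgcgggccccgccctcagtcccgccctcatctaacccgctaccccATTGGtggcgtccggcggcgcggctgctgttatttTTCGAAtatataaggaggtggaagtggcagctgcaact
MYBL2, chr20:43667004-43667113, plus strand: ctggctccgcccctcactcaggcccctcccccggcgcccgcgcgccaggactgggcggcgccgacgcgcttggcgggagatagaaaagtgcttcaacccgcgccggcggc

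A CHR match was found for 30 of 39 genes (76.9%), against 19.5% of the 27305 genes with a RefSeq window. A CCAAT match was found for 29 of 39 (74.4%, against 39.7%), both for 24 (61.5%, against 7.85%), and an E2F match for 8 (20.5%, against 11%). Of the 46 CHR matches, 43 were TTTGAA and 3 TTCGAA, 2 of them overlapped a CCAAT match, and 1 CCAAT match overlapped an E2F match. The CHR matches lay close to the start, 31 of the 46 within 50 bases of it, with a median position of -28.5. Windows of alternative starts of 1 gene can overlap, so a match can be counted more than once, and base composition was not matched. CENPE, CKAP2, KIF2C and MYBL2 had no match, which says only that these letters are not in their windows. The 29 measured members with a CHR match and the 9 without had a median log2 change of -1.18 and -1.08 between untreated 3D and untreated 2D, and of -1.17 and -1.09 with MPP in 2D, values given as a description.

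**Figure D1:**
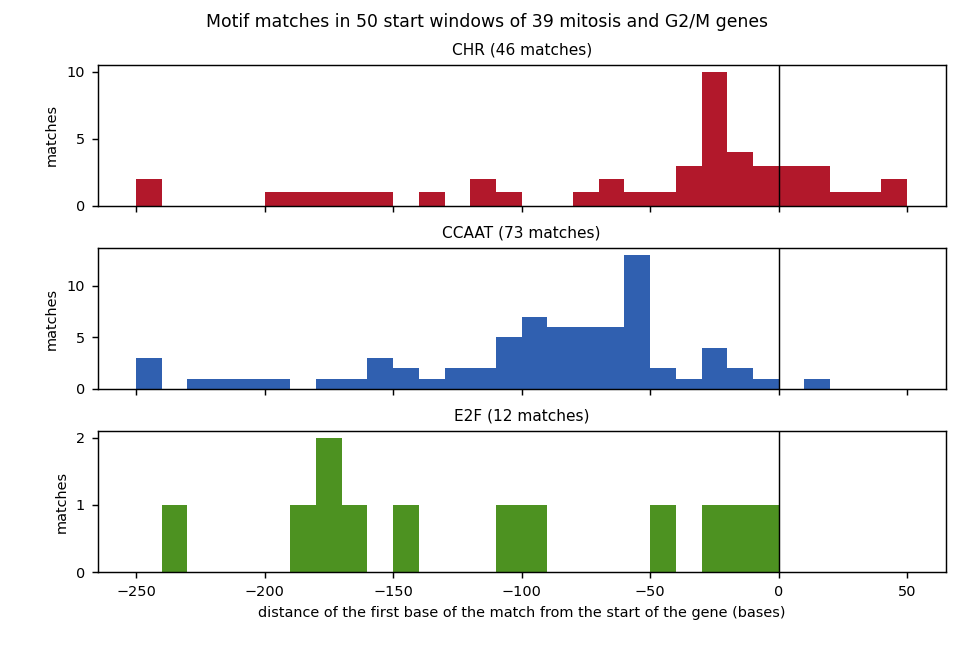
Number of motif matches (y axis, matches per 10-base bin) by distance of the first base of the match from the start of the gene (x axis, bases), in 50 start windows of 39 mitosis and G2/M genes. CHR matches (46) gather just before the start, with a median at -28.5 bases, CCAAT matches (73) lie mostly further before it, and E2F matches (12) are few and spread out.

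The first comparison asked how the mitosis genes differ between the scaffold and the dish without toxin. All 45 were lower in untreated 3D (limma, Benjamini-Hochberg adjusted p of 0.0136 or less), where 23% of all genes tested were called lower and 23.2% higher. In all 45 the 4 untreated 3D libraries lay below the 4 untreated 2D libraries, as in 20.3% of all genes. The median log2 change was -1.15, against 0.010 over all genes, and 34 members changed by -1 or more negative values. Mean levels in untreated 3D ranged from 27.4% of the untreated 2D mean for CENPE to 83.7% for CKAP2, with a median of 45.4%. In bulk RNA, fewer dividing cells and less of these RNAs per dividing cell cannot be told apart.

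Among the 8 master regulators all fell, with a median log2 change of -1.17. CDK1 (Entrez gene 983), the kinase that starts mitosis, had 2078, 2265, 2009 and 1959 normalised reads in untreated 2D and 795, 878, 908 and 952 in untreated 3D, a log2 change of -1.23 (SE 0.13, limma adjusted p = 5.56e-08). CCNB1 (Entrez gene 891), cyclin B1, which activates that kinase, had 1436, 1289, 1443 and 1379 against 706, 683, 533 and 731 (log2 -1.07, SE 0.14, limma adjusted p = 1.09e-06). The libraries of each group lay close together for both genes, with a wide gap between the groups. FOXM1 (Entrez gene 2305), the transcription factor of the late wave, had 2288, 2065, 1942 and 1774 against 922, 990, 678 and 1049 (log2 -1.16, SE 0.17, limma adjusted p = 9.25e-06). CDC25B (Entrez gene 994), a phosphatase that activates CDK1 early in mitosis, was among the 3 members with the smallest fall, from 3087 ± 324 (SD, n = 4) to 1903 ± 115 (log2 -0.69, limma adjusted p = 6.10e-07).

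The 6 mitotic kinases all fell (median log2 -1.24), as did the 5 spindle checkpoint genes (median -1.18), which share BUB1, BUB1B and TTK with the kinases. PLK1 (Entrez gene 5347), polo-like kinase 1, had 1388, 1352, 1147 and 1070 normalised reads in untreated 2D and 662, 599, 549 and 770 in untreated 3D (log2 -0.94, SE 0.12, limma adjusted p = 8.88e-07). AURKB (Entrez gene 9212), the kinase of the chromosomal passenger complex, had 570, 772, 569 and 540 against 343, 221, 199 and 351 (log2 -1.17, SE 0.21, limma adjusted p = 9.42e-05). For AURKB the untreated 3D libraries split into a higher pair (replicates 1 and 4) and a lower pair (2 and 3), all below the dish. BUB1B (Entrez gene 701), the checkpoint protein BubR1, fell from 1115 ± 83.6 to 400 ± 53.7 (log2 -1.48, limma adjusted p = 4.13e-08), among the 3 lowest changes of the 45. BUB3 (Entrez gene 9184), a checkpoint protein that also acts outside mitosis, had 4769, 4834, 4723 and 4466 against 3169, 3369, 3584 and 3061 (log2 -0.51, SE 0.067, limma adjusted p = 1.78e-06). Its groups were as well separated as those of the other genes although its fall was small.

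The 5 measured centromere and kinetochore genes had the lowest median of the role groups, at -1.42. CENPE (Entrez gene 1062), a kinetochore motor, had 1158, 1113, 954 and 1130 normalised reads in untreated 2D and 304, 322, 283 and 283 in untreated 3D, the lowest log2 change of all members (-1.86, SE 0.18, limma adjusted p = 2.90e-08). CENPF (Entrez gene 1063), a kinetochore and nuclear matrix protein, fell from 5567 ± 510.1 to 2006 ± 188 (log2 -1.47, limma adjusted p = 1.16e-08). The 5 kinesins fell with a median of -1.14, led by KIF20A (Entrez gene 10112), a motor of the central spindle, from 1616, 1340, 1378 and 1305 to 477, 552, 487 and 491 (log2 -1.49, SE 0.13, limma adjusted p = 6.34e-09). For both motors the untreated 3D libraries lay close together and far below the lowest dish library.

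The remaining role groups moved the same way. The 7 spindle proteins had a median log2 change of -1.28, the 4 chromosomal passenger genes -1.06, the 3 cytokinesis genes -0.98, the 3 genes of anaphase control -0.98 and the 4 genes of chromosome structure -1.20. CDC20 (Entrez gene 991), which activates the anaphase-promoting complex, had 825, 848, 824 and 765 normalised reads in untreated 2D and 498, 426, 306 and 446 in untreated 3D (log2 -0.98, SE 0.15, limma adjusted p = 1.20e-05). MKI67 (Entrez gene 4288), the proliferation marker that coats mitotic chromosomes, had 6406, 5521, 5050 and 6994 against 2350, 2576, 2373 and 2767 (log2 -1.24, SE 0.16, limma adjusted p = 2.04e-06). TOP2A (Entrez gene 7153), the topoisomerase that untangles sister chromosomes, had 9775, 9098, 8343 and 9020 against 4035, 4371, 4120 and 4020 (log2 -1.13, SE 0.10, limma adjusted p = 1.01e-08). All 3 had a gap between the groups larger than the spread within either.

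CKAP2, a microtubule protein of the spindle, was the member nearest to no change in untreated 3D, with 2757, 2468, 2555 and 2351 normalised reads on the dish and 2125, 2136, 2347 and 1876 in the scaffold (log2 -0.26, SE 0.082, limma adjusted p = 0.0136). The highest scaffold library lay just under the lowest dish library. Without untreated 2D replicate 1 or untreated 3D replicate 4 its adjusted p was 0.0551 or 0.0523, so this call rests on both. No other named member lost its call in this comparison when 1 library was left out.

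**Figure D2:**
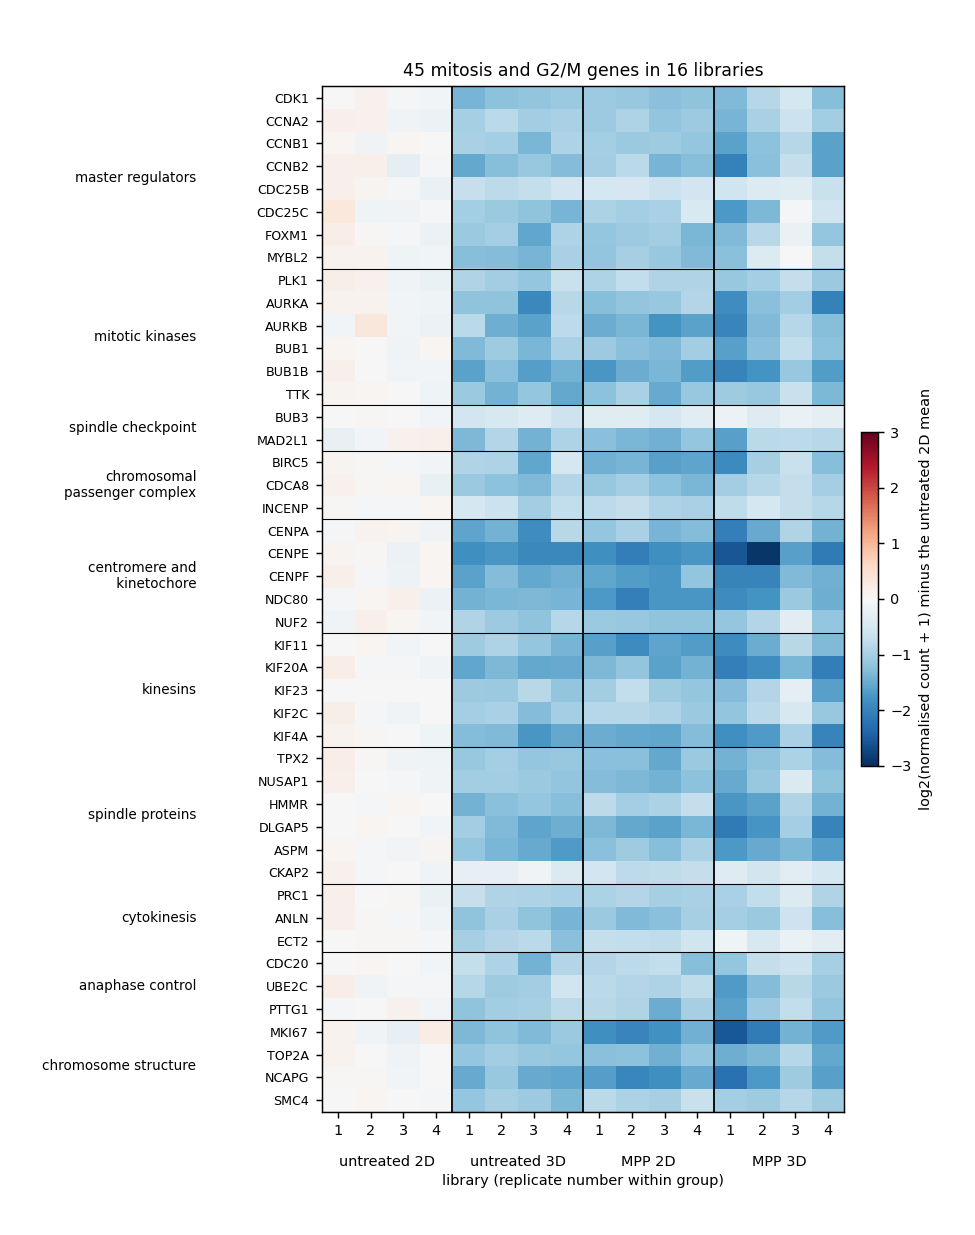
Each cell is the log2(normalised count + 1) of 1 of 45 mitosis and G2/M genes (rows, by role) in 1 of 16 libraries (columns, by group and replicate), minus the mean over the 4 untreated 2D libraries (colour, log2 units). Untreated 3D and MPP-treated 2D are evenly blue, and within MPP-treated 3D replicate 1 is darkest in most rows and replicate 3 is lightest in 42 of 45.

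MPP on the dish gave a fall of like size. All 45 members were lower in MPP-treated 2D than in untreated 2D (limma, adjusted p of 0.0162 or less), where 16.9% of all genes were called lower and 17.7% higher. In all 45 the groups did not overlap, as in 19% of all genes with MPP lower and 19.8% with MPP higher. The median log2 change was -1.16, against 0.020 over all genes, and 32 members changed by -1 or more negative values. Mean levels ranged from 27.3% of untreated 2D for CENPE to 76.1% for BUB3, with a median of 44.6%. This comparison and the one before share the untreated 2D libraries.

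The lowest changes with MPP on the dish were those of CENPE, NDC80 and MKI67. CENPE had 302, 258, 305 and 324 normalised reads with MPP (log2 -1.87, SE 0.18, limma adjusted p = 7.66e-08), close to its untreated 3D values. NDC80 (Entrez gene 10403), which joins kinetochores to microtubules, had 554, 584, 624 and 501 without MPP and 170, 135, 168 and 166 with it (log2 -1.82, SE 0.16, limma adjusted p = 9.95e-09). MKI67 had 1664, 1497, 1681 and 2201 with MPP (log2 -1.77, SE 0.16, limma adjusted p = 3.21e-08). For all 3 genes the highest MPP library was far below the lowest untreated one.

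The smallest falls with MPP on the dish were those of ECT2, CDC25B and BUB3. ECT2 (Entrez gene 1894), which sets up the cleavage furrow, had 1852, 1921, 1927 and 1799 normalised reads without MPP and 1138, 1127, 1108 and 1229 with it (log2 -0.70, SE 0.094, limma adjusted p = 5.44e-06). CDC25B went from 3087 ± 324 to 2082 ± 91.9 (log2 -0.56, limma adjusted p = 2.05e-05). BUB3 had 3679, 3628, 3316 and 3683 with MPP (log2 -0.39, SE 0.067, limma adjusted p = 9.38e-05). Each was separated from its control libraries.

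By role, the medians with MPP on the dish were -1.11 for the 8 master regulators, -1.20 for the 6 kinases, -1.21 for the 5 checkpoint genes, -1.35 for the 4 passenger genes, -1.55 for the 5 centromere and kinetochore genes and -1.39 for the 5 kinesins. The 7 spindle proteins had -1.14, the 3 cytokinesis genes -0.94, the 3 genes of anaphase control -0.92 and the 4 genes of chromosome structure -1.51. CDK1 had 982, 950, 873 and 899 normalised reads in MPP-treated 2D (log2 -1.16, limma adjusted p = 3.50e-07), CCNB1 682, 639, 660 and 616 (log2 -1.09, limma adjusted p = 1.84e-06) and FOXM1 899, 950, 982 and 777 (log2 -1.16, limma adjusted p = 1.96e-05). PLK1 had 653, 738, 657 and 658 (log2 -0.87), AURKB 215, 234, 174 and 200 (log2 -1.57), BUB1B 331, 394, 428 and 348 (log2 -1.57) and CENPF 1886, 1730, 1646 and 2430 (log2 -1.55). These 7 genes of entry, checkpoint and kinetochore all had MPP libraries below every untreated 2D library. KIF20A had 552, 623, 462 and 524 (log2 -1.39), CDC20 440, 473, 487 and 335 (log2 -0.92) and TOP2A 3821, 3833, 3306 and 4072 (log2 -1.27), all likewise below.

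**Figure D3:**
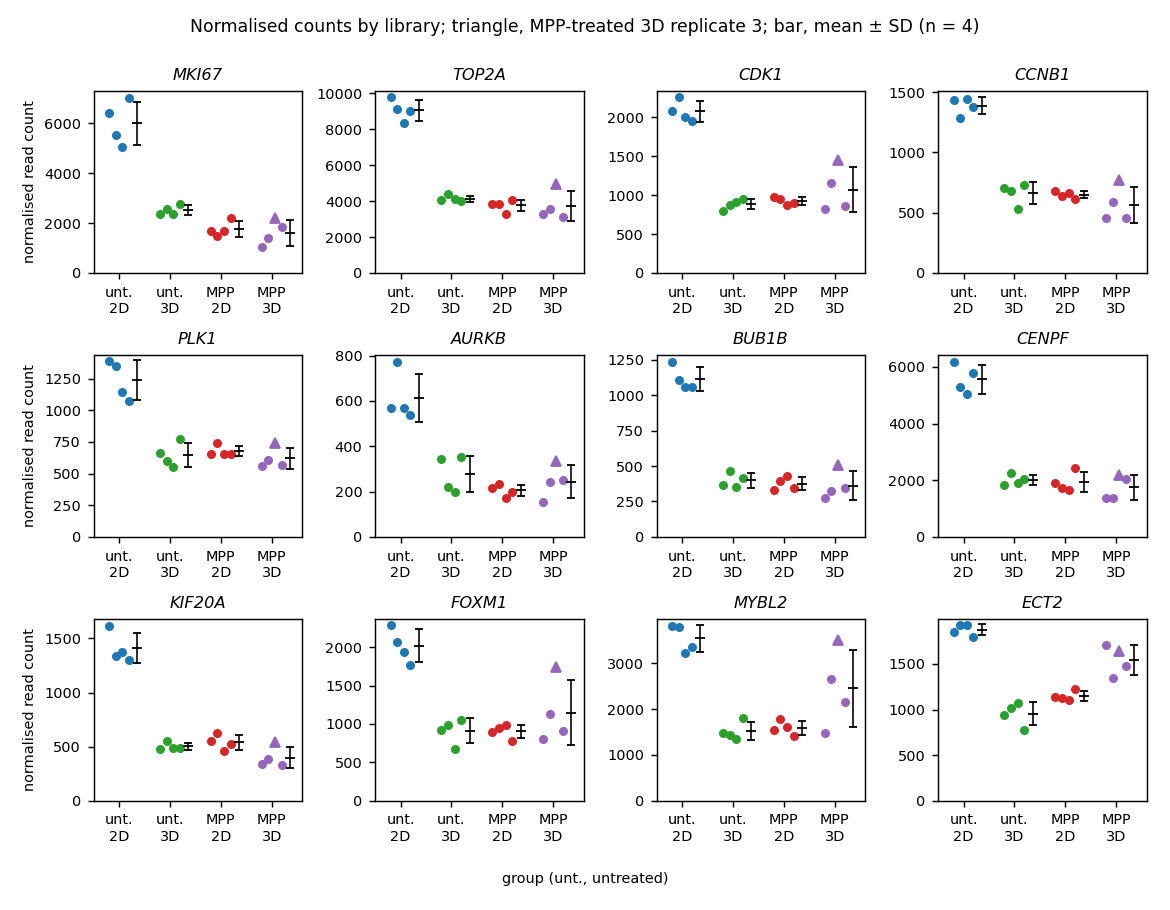
Normalised read counts (y axis, starting at 0) of 12 members in each library of the 4 groups (x axis); points are libraries, triangles are MPP-treated 3D replicate 3, and bars are mean ± SD (n = 4). Untreated 2D stands above the other 3 groups in all 12 panels except for MYBL2, where the triangle at 3500 reaches the dish range, and ECT2 in MPP-treated 3D (1344 to 1704) lies above both untreated 3D and MPP-treated 2D.

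In the scaffold MPP gave no such common fall. Of the 45 members, 3 were called higher (limma; ECT2, MYBL2 and BUB3) and 2 lower (MKI67 and KIF20A), where 17% of all genes were called higher and 17.6% lower. These 5 members called in either direction compare with 34.6% of all genes. For 42 members the MPP-treated and untreated 3D libraries overlapped; ECT2 and BUB3 had all 4 MPP libraries higher, as in 13.5% of all genes, and MKI67 had all 4 lower, as in 14.1%. The median log2 change was -0.06, against 0.0033 over all genes. At an unadjusted p under 0.05 there were 10 members, and edgeR called 4. Without MPP-treated 3D replicate 3, 3 were called higher (16% of all genes) and 13 lower (17%), and the median was -0.19. Without replicate 1, 2 or 4 of that group, 1 was called lower, MKI67.

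MKI67 had 2350, 2576, 2373 and 2767 normalised reads in untreated 3D and 1026, 1395, 2222 and 1824 in MPP-treated 3D (log2 -0.69, SE 0.16, limma adjusted p = 0.00217). The highest MPP library, replicate 3, was just under the lowest untreated one, and without it the log2 change was -0.87 (adjusted p = 1.69e-04). KIF20A had 477, 552, 487 and 491 against 338, 386, 539 and 332 (log2 -0.36, SE 0.13, limma adjusted p = 0.0417). Here replicate 3 lay among the untreated libraries and the other 3 below them. The KIF20A call was lost in 11 of 16 other settings, at adjusted p of 0.0524 to 0.141, among them leaving out untreated 3D replicate 2, 3 or 4 (0.111, 0.0524 and 0.0565) or MPP-treated 3D replicate 1, 2 or 4 (0.128, 0.0736 and 0.14). Without MPP-treated 3D replicate 3 its log2 change was -0.51 (adjusted p = 0.00176).

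ECT2 had 945, 1014, 1076 and 780 normalised reads in untreated 3D and 1704, 1344, 1637 and 1476 in MPP-treated 3D (log2 0.69, SE 0.094, limma adjusted p = 5.70e-06). Replicate 3 was not the highest for this gene, and without it the change was 0.66. MYBL2 (Entrez gene 4605), B-MYB, the activator that binds MuvB, had 1472, 1438, 1350 and 1800 against 1485, 2660, 3500 and 2166 (log2 0.64, SE 0.16, limma adjusted p = 0.0041). MPP-treated 3D replicate 1 lay among the untreated libraries and replicate 3 near the dish level, and without replicate 3 the change was 0.44 (adjusted p = 0.02). BUB3 had 3169, 3369, 3584 and 3061 against 4126, 3608, 4113 and 3898 (log2 0.26, SE 0.067, limma adjusted p = 0.00477), and 0.23 without replicate 3.

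The other named members did not pass the test in this comparison. CENPE had 182, 143, 352 and 250 normalised reads in MPP-treated 3D, replicate 3 being above all untreated 3D libraries and the other 3 below them (log2 -0.44, 95% interval -0.82 to -0.060, limma adjusted p = 0.0672). DLGAP5, a spindle protein that binds Aurora A, had 518, 425, 356 and 389 against 246, 312, 532 and 265 (log2 -0.37, limma adjusted p = 0.0991). FOXM1 had 801, 1132, 1744 and 906 (log2 0.29, 95% interval -0.072 to 0.64, limma adjusted p = 0.212), of which replicate 3 was far above the untreated 3D range. Without replicate 3, CENPE (-0.67, adjusted p = 0.00199) and DLGAP5 (-0.61, adjusted p = 9.84e-04) were called lower and FOXM1 stood at 0.061.

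CDK1 had 825, 1155, 1448 and 859 normalised reads in MPP-treated 3D (log2 0.24, 95% interval -0.021 to 0.51), CCNB1 452, 592, 770 and 458 (log2 -0.25, interval -0.53 to 0.033) and PLK1 563, 605, 744 and 571 (log2 -0.05, interval -0.30 to 0.19). Leaving out MPP-treated 3D replicate 1 gave CDK1 a log2 change of 0.36 (adjusted p = 0.0325). Leaving out untreated 3D replicate 3 or MPP-treated 3D replicate 3 gave CCNB1 a change of -0.35 (adjusted p = 0.0498) or -0.41 (0.0108). CDK1 was also called with all libraries scaled to equal totals (0.34, adjusted p = 0.0456).

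AURKB had 154, 240, 334 and 249 (log2 -0.20, interval -0.63 to 0.24), BUB1B 274, 320, 507 and 346 (log2 -0.17, interval -0.48 to 0.14) and CENPF 1382, 1374, 2200 and 2038 (log2 -0.23, interval -0.51 to 0.057). CDC20 had 367, 493, 520 and 405 (log2 0.10, interval -0.21 to 0.41) and TOP2A 3282, 3538, 4972 and 3115 (log2 -0.17, interval -0.39 to 0.041). In all 5 the highest value was replicate 3, and the groups overlapped. Without it TOP2A (-0.32, adjusted p = 0.00281) and BUB1B (-0.35, adjusted p = 0.045) were called lower, together with CCNB1, CENPE, DLGAP5, KIF20A and MKI67 above, KIF11 (-0.43), KIF4A (-0.38), UBE2C (-0.48), HMMR (-0.32), CKAP2 (-0.23) and NCAPG (-0.43). By role, kinesins (3 of 5), spindle proteins (3 of 7) and chromosome structure (3 of 4) then held most of the 13. These calls are a description, since replicate 3 was set apart by the same values.

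**Figure D4:**
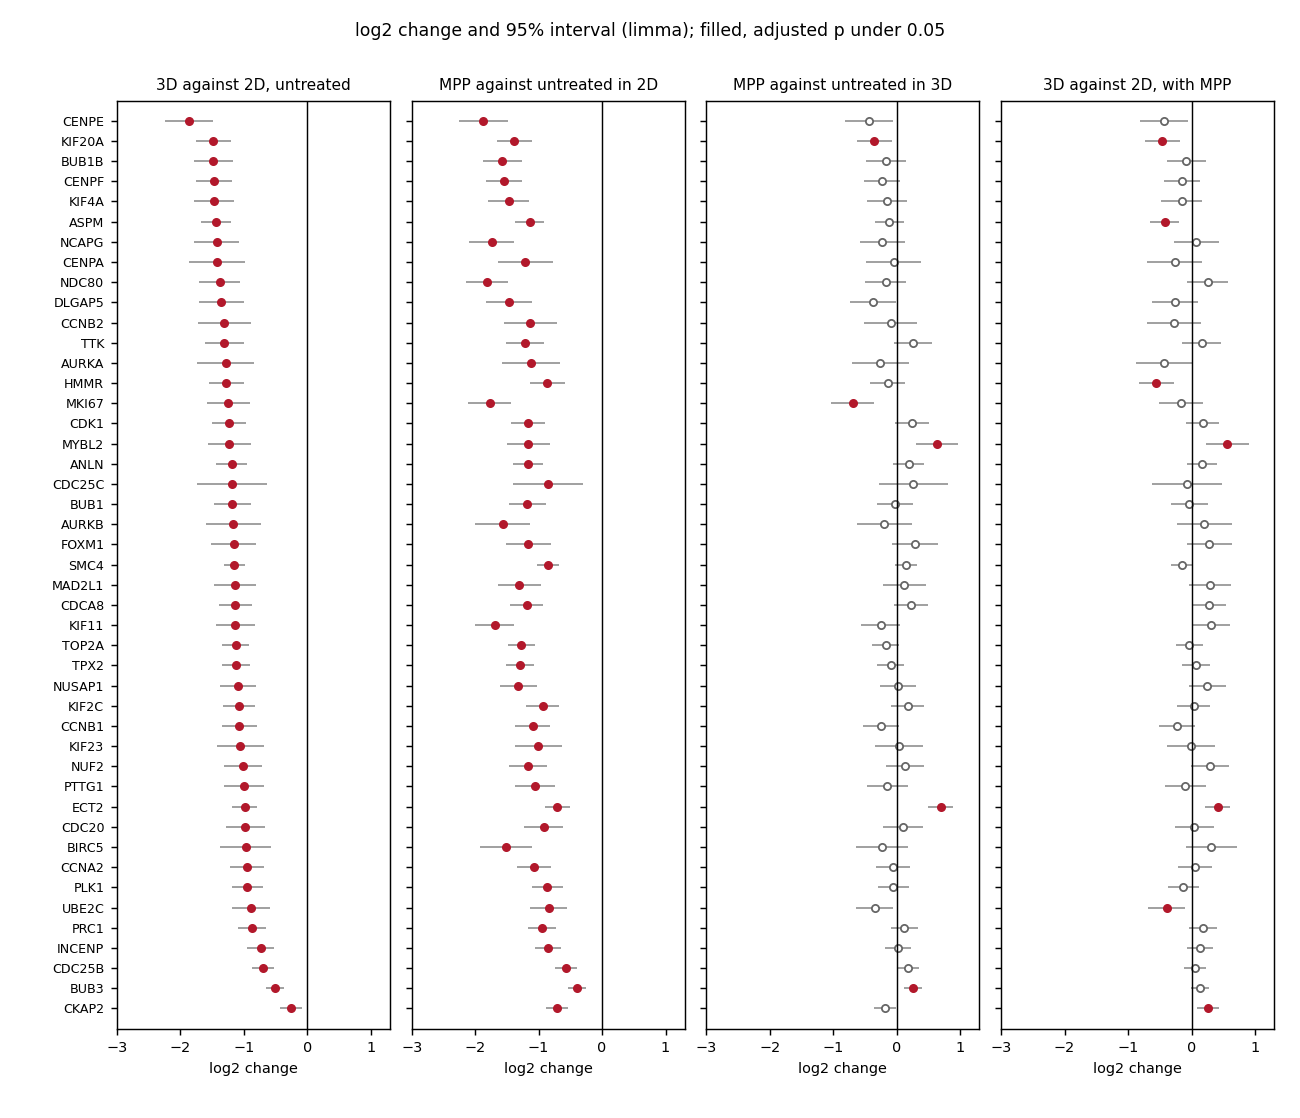
Log2 change (x axis) of each of the 45 members (rows, ordered by the first panel) with its 95% interval from limma, in 4 comparisons; filled points have an adjusted p under 0.05. All 45 points are filled and left of 0 in the first and second panels, while 5 are filled in the third and 7 in the fourth, on both sides of 0.

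The change with MPP was tested against itself between the cultures, as the MPP effect in 3D minus that in 2D. This difference was called above 0 for 43 of 45 members (limma), where 7% of all genes were called higher and 8.32% lower, and below 0 for none. The median difference was 1.11 on the log2 scale, against -0.019 over all genes. AURKA (0.86, limma adjusted p = 0.0611), the Aurora kinase of spindle poles, and UBE2C (0.49, limma adjusted p = 0.104), the ubiquitin-conjugating enzyme of the anaphase-promoting complex, were not called. With MPP-treated 3D replicate 3 left out, 42 were called above 0 (6.11% of all genes) and 0 below (7.7%), CDC25C being the additional loss. The members fell with MPP on the dish, whereas in the scaffold 2 of 45 were called lower. Their untreated levels were lower in the scaffold than on the dish, and whether this bears on the difference was not tested.

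The differences were highest for MYBL2 (1.8, 95% interval 1.32 to 2.27, limma adjusted p = 6.19e-06), NDC80 (1.64, 1.18 to 2.10, adjusted p = 1.20e-05) and NCAPG (1.51, 1.01 to 2.01, adjusted p = 9.55e-05), a condensin subunit. They were lowest for UBE2C, CKAP2 (0.52, 0.28 to 0.76, adjusted p = 0.00334) and BUB3 (0.65, 0.45 to 0.85, adjusted p = 3.27e-05). NCAPG shows the pattern in single libraries. It had 1049, 1045, 969 and 1025 normalised reads on the untreated dish and 322, 264, 286 and 357 with MPP there, and 359, 463, 358 and 346 in the untreated scaffold and 217, 311, 485 and 331 with MPP there. The untreated dish stood apart for NCAPG, and the other 3 groups overlapped. UBE2C passed the test without untreated 3D replicate 4 (0.59, adjusted p = 0.0459) or without MPP-treated 3D replicate 1 (0.65, adjusted p = 0.0128).

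With MPP in both cultures, the scaffold and the dish differed for few members. Of 45, 3 were called higher in 3D (limma; MYBL2, ECT2 and CKAP2) and 4 lower (HMMR, KIF20A, ASPM and UBE2C), where 19% of all genes were called higher and 19.9% lower. For 42 members the groups overlapped; ECT2 and CKAP2 had all 4 scaffold libraries higher, as in 18.5% of all genes, and ASPM had all 4 lower, as in 19%. The median log2 change was 0.04, against 0.0088 over all genes. Without MPP-treated 3D replicate 3, 2 members were called higher (17.9% of all genes) and 10 lower (19.1%), with a median of -0.10. Without MPP-treated 3D replicate 1, 8 were called higher.

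MYBL2 had 1550, 1783, 1607 and 1418 normalised reads in MPP-treated 2D, of which replicate 1 of MPP-treated 3D (1485) lay within the range and the other 3 above it (log2 0.56, SE 0.16, limma adjusted p = 0.00873). ECT2 was higher in every MPP-treated 3D library (log2 0.42, SE 0.094, limma adjusted p = 0.00132). CKAP2 had 1703, 1456, 1502 and 1550 on the dish and 1939, 1724, 2035 and 1748 in the scaffold (log2 0.26, SE 0.082, limma adjusted p = 0.0156). Its lowest scaffold library lay just above the highest dish library, and without replicate 3 of MPP-treated 3D its adjusted p was 0.056.

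HMMR, a spindle-associated hyaluronan receptor, had 753, 645, 677 and 788 normalised reads in MPP-treated 2D and 385, 427, 694 and 487 in MPP-treated 3D (log2 -0.56, SE 0.13, limma adjusted p = 0.00195). Replicate 3 lay within the dish range and the other 3 below it. KIF20A was lower with a log2 change of -0.46 (limma adjusted p = 0.00915), ASPM, a spindle pole protein, of -0.42 (adjusted p = 0.0046) and UBE2C of -0.39 (adjusted p = 0.0327). CENPE (-0.43, 95% interval -0.82 to -0.053, limma adjusted p = 0.0666) and BIRC5, survivin of the passenger complex (0.31, interval -0.093 to 0.71, limma adjusted p = 0.22), were not called. Without replicate 3 the 10 lower members were HMMR, CENPE, KIF20A, AURKA, UBE2C, CCNB2, DLGAP5, ASPM, CCNB1 and KIF4A, from -0.73 for HMMR to -0.38 for KIF4A, and without replicate 1 BIRC5 was called higher (0.54, adjusted p = 0.0148).

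Within each group the members differed in how evenly they were measured. Their median coefficient of variation was 8.24% on the untreated dish, 9.54% on the dish with MPP and 12.1% in the untreated scaffold, against 7.49%, 7.93% and 12.1% for the 11108 genes in the same range of means. In MPP-treated 3D it was 25.4%, against 10.3%, from 6.16% for BUB3 to 52.2% for CDC25C. The fit gives each gene 1 spread over all 4 groups. The SE, intervals and p-values of comparisons with MPP-treated 3D can therefore understate the spread within that group. The spread had both ends: replicate 3 was highest in 42 members and replicate 1 lowest in 29, where 28.9% of all genes had their lowest value there. Centred on the mean of 16 libraries, the median member stood at -0.68, -0.30, 0.10 and -0.37 in MPP-treated 3D replicates 1 to 4, at 0.77 to 0.94 on the untreated dish, at -0.40 to -0.24 on the dish with MPP and at -0.35 to -0.22 in the untreated scaffold. Replicate 3 exceeded all 4 untreated 3D libraries in 33 of 45 members, as in 28% of all genes, yet no member had a group mean above that of untreated 2D. Mean levels in MPP-treated 3D ran from 21.3% of untreated 2D for CENPE to 83.8% for BUB3, with a median of 45.9%.

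The rise of replicate 3 was seen in each role group. The 8 master regulators summed to 11016 normalised reads in it against 6169, 8660 and 7104 in MPP-treated 3D replicates 1, 2 and 4, the 6 mitotic kinases to 3057 against 1888, 2238 and 2129, and the 5 kinesins to 4883 against 2661, 3317 and 2801. G1/S and replication genes, which act before mitosis, had a median deviation of 0.50 in it against -0.24, 0.13 and -0.02, so they were high in the same library. The mature neuron markers were also highest of the group in replicate 3, with a median deviation of -0.20 against -0.36 to -0.28 and a summed level of 98543 against 84108 to 92680. The median deviation lay within the range of the other 3 libraries for the remaining marker lists, although the summed levels of the dopamine neuron (15179 against 12048 to 13326), mesenchymal (8144 against 7243 to 7880) and Schwann cell and glia markers (785 against 664 to 775) were highest there too. This deviation was -0.48 against -0.62 to -0.23 for the mesenchymal markers, 0.05 against -0.29 to 0.10 for the Schwann cell and glia markers, -0.16 against -0.52 to -0.14 for the neuroblast markers and 0.024 against -0.38 to 0.70 for the dopamine neuron markers. Other lists had their lowest summed level of the group in replicate 3. The cyclin-dependent kinase inhibitors and arrest genes summed to 35192 against 36521 to 40031, and the DREAM and MuvB genes to 17898 against 18219 to 19785. The subunits of the anaphase-promoting complex with their activator FZR1 summed to 28319 against 28738 to 30407, and the neuroblast markers to 357849 against 382603 to 444628. In untreated 3D the neuroblast sum was mostly DLK1. The median deviation of the neuroblast list in replicate 3, given above, lay within the range of the rest of the group. What sets this library apart was not tested.

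**Figure D5:**
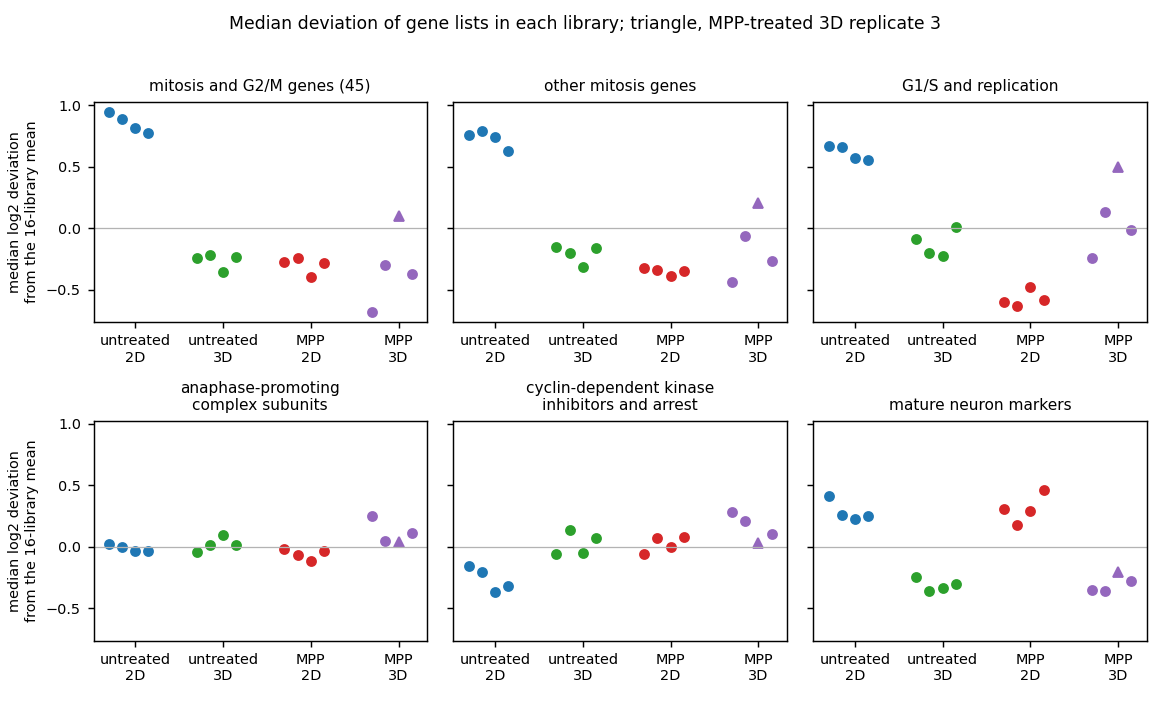
Median over a gene list of the log2 deviation from the mean of 16 libraries (y axis, log2 units), by library (points) in the 4 groups (x axis); triangles are MPP-treated 3D replicate 3. The 45 members stand at 0.77 to 0.94 in untreated 2D and at or below 0.10 elsewhere, other mitosis genes and G1/S genes follow with the triangle highest of its group, and the subunits of the anaphase-promoting complex stay between -0.11 and 0.25 in all libraries.

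Other genes of the pathway were counted from lists of known function. Of 55 tested mitosis genes that are not among the members, 49 fell and 0 rose in untreated 3D (median log2 -1.01), 52 fell and 0 rose with MPP in 2D (median -1.11), 11 rose and 4 fell when the scaffold received MPP (median 0.068), and 18 rose and 0 fell in 3D against 2D with MPP (median 0.22). Over all genes, 23% were called lower in untreated 3D and 16.9% with MPP in 2D. With MPP in 3D 17% of all genes were called higher and 17.6% lower, and in 3D against 2D with MPP 19% and 19.9%. In these 2 comparisons the 55 genes called in either direction were a smaller share than the 34.6% and 38.9% of all genes. The 4 that fell with MPP in 3D were SGO2, SKA2, KNL1 and CCNF, at -0.39 to -0.53. Leaving out MPP-treated 3D replicate 3 gave 8 higher and 8 lower with MPP in 3D, and 11 higher in 3D against 2D with MPP. The difference of the MPP effects was called above 0 for 49 of them (median 1.10), as for 7% of all genes. Without MPP-treated 3D replicate 3 it was called above 0 for 47, as for 6.11% of all genes. SKA3, of the outer kinetochore, fell from 425 ± 58.7 in untreated 2D to 88.7 ± 16.6 with MPP (log2 -2.26, limma adjusted p = 2.24e-09). NCAPG2, a condensin II subunit, rose with MPP in 3D from 1301 ± 72.7 to 2011 ± 220 (log2 0.62, limma adjusted p = 1.97e-06). WEE1, the kinase that restrains CDK1, fell from 1562 ± 131 to 1123 ± 40.8 in untreated 3D (log2 -0.47, limma adjusted p = 2.55e-04) and to 902.8 ± 49.8 with MPP in 2D (log2 -0.79, limma adjusted p = 1.01e-06).

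The subunits of the anaphase-promoting complex are also used by cells outside mitosis. Calls in either direction over all genes were 46.1% in untreated 3D against 2D, 34.5% with MPP in 2D, 34.6% with MPP in 3D, 38.9% in 3D against 2D with MPP and 15.3% for the difference of the MPP effects, and the counts of this and the following lists are to be read against these shares. Of 15 subunits, FZR1 rose and ANAPC7 fell in untreated 3D, CDC16 rose and ANAPC5, ANAPC7 and CDC27 fell with MPP in 2D, and ANAPC1 rose and CDC27 and FZR1 fell with MPP in 3D. In 3D against 2D with MPP, 4 rose (ANAPC1, ANAPC5, ANAPC13 and CDC23) and FZR1 fell. Leaving out MPP-treated 3D replicate 3 ended the calls of ANAPC1 with MPP in 3D and of FZR1 in 3D against 2D with MPP. The difference of the MPP effects was called above 0 for ANAPC7 (0.46) and below 0 for FZR1 (-0.46), the activator that keeps the complex on in G1. CDC27 fell with MPP in 2D from 3718 ± 151 to 2755 ± 161 (log2 -0.43, limma adjusted p = 3.85e-04).

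Of 12 genes of the DREAM and MuvB complexes, 2 rose (E2F4 and E2F5) and 4 fell (TFDP1, TFDP2, RBL1 and LIN9) in untreated 3D, a share near that of all genes, and 0 rose and 8 fell with MPP in 2D. With MPP in 3D LIN52 rose and TFDP1 and DYRK1A fell, and in 3D against 2D with MPP 6 rose and TFDP1 fell. The difference of the MPP effects was called above 0 for 7 and below 0 for 0. Without MPP-treated 3D replicate 3, 7 rose in 3D against 2D with MPP and 6 differences were called above 0. TFDP1, the partner of E2F factors, fell from 2456 ± 34.4 in untreated 2D to 1318 ± 96.6 in untreated 3D (log2 -0.90, limma adjusted p = 4.04e-08). LIN52 of the MuvB core rose with MPP in 3D from 623 ± 37.8 to 926 ± 9.95 (log2 0.57, limma adjusted p = 2.35e-05).

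Of 25 G1/S and replication genes, 22 fell and 1, CCND1, rose in untreated 3D (median -0.81), and all 25 fell with MPP in 2D (median -1.16). With MPP in 3D 11 rose and 3 (CCND1, RRM2 and FEN1) fell (median 0.35), and in 3D against 2D with MPP 18 rose and 0 fell (median 0.68). The difference of the MPP effects was called above 0 for 24 (median 1.40). Leaving out MPP-treated 3D replicate 3 gave 8 higher and 3 lower with MPP in 3D, and 1 difference called below 0. MCM6 of the replicative helicase had 1326, 1313, 1335 and 1198 normalised reads in untreated 3D and 1826, 2078, 2853 and 1894 in MPP-treated 3D (log2 0.72, limma adjusted p = 1.25e-05), all MPP libraries being higher.

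The cyclin-dependent kinase inhibitors and arrest genes did not move as 1 group. Of 16, 7 rose and 5 fell in untreated 3D, 8 rose and 1 fell with MPP in 2D, 4 rose and 3 fell when the scaffold received MPP, and 7 rose and 3 fell in 3D against 2D with MPP. The difference of the MPP effects was called above 0 for TP73 and below 0 for 6, CDKN1C among them. Without MPP-treated 3D replicate 3, 5 rose with MPP in 3D and 6 in 3D against 2D with MPP. CDKN1A, the inhibitor p21, had 8082, 7537, 7420 and 7341 normalised reads on the untreated dish and 13935, 16262, 14233 and 14674 on the dish with MPP, and 3986, 4196, 3942 and 4548 in the untreated scaffold and 9090, 9111, 7415 and 8186 in the scaffold with MPP. It thus fell in untreated 3D (log2 -0.87, limma adjusted p = 2.41e-09), where the mitosis genes also fell, and rose with MPP in 2D (log2 0.96, limma adjusted p = 1.59e-09) and in 3D (log2 1.02, limma adjusted p = 3.57e-10). The difference between these rises was 0.058 (SE 0.10) and did not pass the test (limma adjusted p = 0.766).

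CDKN1C, the inhibitor p57, had 133, 140, 83.2 and 82.6 normalised reads in untreated 2D and 3369, 4625, 2647 and 5155 in untreated 3D (log2 5.15, SE 0.21, limma adjusted p = 1.05e-14). With MPP it had 103, 95.2, 92.4 and 95.9 on the dish and 780, 645, 394 and 550 in the scaffold, so only the scaffold groups were high. CDKN1B, the inhibitor p27, rose in untreated 3D from 2365 ± 212 to 3029 ± 156 (log2 0.36, limma adjusted p = 2.22e-04) and with MPP in 2D to 2959 ± 158 (log2 0.33, limma adjusted p = 9.90e-04). TP73, a p53 relative, was high in MPP-treated 3D alone, with 4532, 4498, 3237 and 3247 against 425 to 805 over the other 12 libraries (log2 2.68 with MPP in 3D, SE 0.16, limma adjusted p = 1.37e-11). Its difference of MPP effects was 2.41 (SE 0.23, limma adjusted p = 8.75e-08).

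Markers of cell identity were counted in the same way, and their part in the mitosis results was not tested. With MPP in 2D, 1 or 2 genes of each of these 5 lists were called, no larger a share than among all genes. Of 8 neuroblast and progenitor markers, 3 rose (DLK1, HES1 and LIN28B) and 2 fell (SOX2 and NES) in untreated 3D, and MYCN and DLK1 fell with MPP in 2D; the summed level of the list was 75408 to 81945 normalised reads in untreated 2D and 634923 to 719989 in untreated 3D, of which DLK1 alone was 33542 to 42099 and 606717 to 695105. With MPP in 3D 1 rose (SOX11) and 6 fell, and in 3D against 2D with MPP DLK1 rose and SOX2, NES and PROM1 fell. Without MPP-treated 3D replicate 3, 5 fell with MPP in 3D and 2 in 3D against 2D with MPP. Of 11 mature neuron markers, 1 rose (RBFOX3) and 9 fell in untreated 3D, STMN2 rose and NEFM fell with MPP in 2D, DCX and STMN2 rose and SYP, NEFM and TUBB3 fell with MPP in 3D, and RBFOX3 rose and 9 fell in 3D against 2D with MPP (RBFOX3 was not called there without MPP-treated 3D replicate 3). Their summed level was 131565 to 147657 on the untreated dish and 141653 to 160952 on the dish with MPP, and 86160 to 92882 in the untreated scaffold and 84108 to 98543 in the scaffold with MPP. Mature neuron markers and mitosis genes were thus both lower in untreated 3D than on the untreated dish.

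Of the 7 tested dopamine neuron markers, 4 rose (TH, DDC, SLC18A2 and PITX3) in untreated 3D, TH and SLC18A2 rose with MPP in 2D, SLC18A2 rose and TH, DDC and PITX3 fell with MPP in 3D, and TH, DDC and SLC18A2 were higher in 3D against 2D with MPP. Without MPP-treated 3D replicate 3, 2 were called higher in 3D against 2D with MPP. Of 9 tested mesenchymal markers, 2 rose (COL1A1 and FOSL2) and 4 fell (VIM, FN1, WWTR1 and CD44) in untreated 3D, VIM rose and COL1A1 fell with MPP in 2D, 3 fell with MPP in 3D and 6 fell in 3D against 2D with MPP. Their summed level was 10701 to 11919 on the untreated dish and 11598 to 12928 on the dish with MPP, and 9542 to 10277 in the untreated scaffold and 7243 to 8144 in the scaffold with MPP. Of 5 tested Schwann cell and glia markers, none passed in untreated 3D, ERBB3 rose with MPP in 2D, S100B fell with MPP in 3D and none passed in 3D against 2D with MPP, and their summed level was 664 to 959 over all 16 libraries.

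Some member values could include reads of a neighbour, since the sources used here do not say whether strand was used in counting. In GENCODE 29, 18 members have exons that overlap another gene, 15 of them on the opposite strand. NUF2, of the NDC80 complex, overlaps a record named RGS5 on the opposite strand, which the annotation types as antisense. The counts under the name RGS5 had a mean of 165500 normalised reads over the 16 libraries, against 624 for NUF2. They were matched by name only, so they may not be those of the overlapping record. CDC25C overlaps FAM53C (mean 2293, against 140) and KIF20A overlaps both BRD8 (1969) and CDC23 (1323, against 713). CENPA overlaps SLC35F6 on the same strand (mean 3034, against 316), which a strand setting would not separate. The values of these 4 members are uncertain for this reason, and those of the other 14 may be as well. The length of the overlaps and the reads gained or lost there were not measured. A copy of AURKA, AURKAP1, was measured at a mean of 22.65.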

How the data were processed

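Poly-A RNA of 16 libraries, 4 in each of 4 groups taken from the sample titles, was sequenced and deposited by the authors as 1 table of normalised signal, that is, reads per gene divided by 1 size factor per library. The tools named in the submitters' processing notes are STAR, featureCounts, DESeq2, FastQC and CASAVA 1.8.2, with the build GRCh38.p13. Annotation, strand setting and filters were not given in the sources used here. In each library 100% of the deposited values were whole multiples of 1 step, within 0.01 reads, so the reads and the depths were recovered from them.

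The main test was limma 3.58.1 with R 4.3.3 on log2(value + 1), fitted over all 16 libraries and 4 group means, for the 16984 genes with 10 or more normalised reads in 4 or more libraries. Fold changes are on that scale, and p-values were adjusted over all genes tested by Benjamini-Hochberg, with 0.05 as the threshold; adjusted p-values in the text are of this kind unless edgeR or another tool is named. A 95% interval is limma's own, without adjustment. SE, intervals and p-values rest on 1 spread per gene over the 4 groups, not on the spread of each group. A group's libraries do not overlap where all 4 of 1 group lie above all 4 of the other. On the recovered reads, edgeR 4.0.16 (quasi-likelihood) called 45 members in untreated 3D against 2D, 45 with MPP in 2D, 4 with MPP in 3D, 7 in 3D against 2D with MPP and 44 for the difference of MPP effects (7722, 5876, 5815, 6677 and 2571 of all genes), and DESeq2 1.42.0 was run as well. Other settings were other scalings, filters, pseudocounts, a replicate block and leaving out each library. The fit was tested on simulated data. Motifs and overlaps were searched with Python 3.11.15 in RefSeq promoters (GRCh38.p14) and in GENCODE 29.

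The members, the lists and the named genes were chosen with earlier results of these data known. Named were a set of 12 members and the 3 highest and 3 lowest of each comparison, of other lists at most 2 of the smallest adjusted p per comparison, and CDKN1A, CDKN1B, WEE1 and TP73; the members of counts of 5 or fewer and those used for printed promoters or overlaps were chosen after their values were seen. The lists were 10 role groups of the members, other mitosis genes, subunits of the anaphase-promoting complex, DREAM and MuvB genes, cyclin-dependent kinase inhibitors and arrest genes, G1/S and replication genes, and neuroblast, mature neuron, dopamine neuron, mesenchymal, and Schwann cell and glia markers, of which 1 gene is not reported here.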

Additional observations from a re-analysis of the deposited data

Results flagged for a closer look

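Over 23 named members in 4 groups, 92 sets of 4 libraries were looked at for 1 library far from the other 3, and 5 had one (the gap to the nearest library over the whole range was above Dixon's 95% critical value). Chance gives about 1 in 20 such cases. PLK1 had 738.4 normalised reads in MPP-treated 2D replicate 2, above the other 3 libraries at 653 to 658 (0.943 of the range). BUB3 had 3316 in MPP-treated 2D replicate 3, below the rest (0.85). NDC80 had 134.8 in MPP-treated 2D replicate 2, below the rest (0.885). AURKB had 772.0 in untreated 2D replicate 2, and NCAPG had 462.6 in untreated 3D replicate 2, both above the rest (0.868 and 0.889). None of these 5 lies in MPP-treated 3D.

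For 22 of the 23 named members the effect of MPP differed between the cultures (3D minus 2D on the log2 scale, tested as an interaction in limma), each above 0, where 7% of all genes were called above 0. Some of the 23 were named for being highest or lowest in this same comparison, so the count is a description. Among regulators of entry into mitosis the difference was 1.41 for CDK1, 0.845 for CCNB1, 0.744 for CDC25B, 1.45 for FOXM1 and 1.795 for MYBL2. Among kinases and checkpoint genes it was 0.813 for PLK1, 1.37 for AURKB, 1.40 for BUB1B and 0.651 for BUB3. Kinetochore genes and a kinesin had 1.43 (CENPE), 1.32 (CENPF), 1.64 (NDC80) and 1.03 (KIF20A). The difference was 1.28 for BIRC5, 1.09 for DLGAP5, 0.722 for HMMR, 0.518 for CKAP2, 1.40 for ECT2 and 1.02 for CDC20. In chromosome structure it was 1.08 for MKI67, 1.10 for TOP2A and 1.51 for NCAPG. UBE2C was the named member that did not pass.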

How the results depend on the processing

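In every setting run, most or all of the 45 members were called lower in untreated 3D and with MPP in 2D. With any 1 library left out the counts were 44 or 45. Over the other settings they were 34 to 45 and 32 to 45, the lowest at a 2-fold minimum. The difference of MPP effects was called for 35 to 45. No named member reversed. With MPP in 3D, 3 were higher and 2 lower: equal library totals gave 6 and 1, and a 2-fold minimum 0 and 0. Equal nuclear totals, the replicate block, edgeR, edgeR with that block and a fit of only the groups compared each gave 1 lower. Leaving out 1 library gave 3 to 4 higher and 1 to 13 lower, 13 being without MPP-treated 3D replicate 3, as with both libraries numbered 3 left out. In 3D against 2D with MPP, 3 were higher and 4 lower: a 2-fold minimum gave 0 and 0, and leaving out 1 library gave 2 to 8 higher (8 without MPP-treated 3D replicate 1) and 3 to 10 lower (10 without replicate 3, also with both libraries numbered 3 left out). Beyond the left-out libraries and the 2-fold minimum, the cause was not tested. edgeR with the block and the pair of number 3 libraries were added after the data were seen.

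Replicate numbers gave no sign of pairing. The correlation of same-numbered libraries was -0.115 to 0.0896, with 0 of 24 pairs over 0.1. Differently numbered libraries had -0.161 to 0.143, with 3 of 72 pairs over 0.1. Such values cannot exclude a small shared effect. In the fit with the replicate block all 45 members remained lower in untreated 3D and with MPP in 2D, and 42 differences of MPP effects were called.

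Equal library totals moved the median of all genes with MPP in 2D from 0.0204 to 0.124, and the share of calls that were higher from 51.1 to 70.3% there and from 49 to 66% with MPP in 3D. Equal nuclear totals gave 59.3% with MPP in 3D, 38.3% in place of 50.2% in untreated 3D, and 66.9% in place of 45.7% for the difference. At the lowest counts, of CDC25C, depth limits what 4 libraries can show.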
